A study of Mus musculus with 4 samples.

Results

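DNA replication and mitosis genes were followed through early gonad development in 39 genes, taken by gene symbol as a set of 14 genes of S phase, when DNA is copied, and a set of 25 genes of mitosis, when it is divided. All 39 were present among the 40999 listed features, and all 39 were among the 20114 genes with enough counts to be tested. The samples were gonads of wild-type C57BL/6J mouse embryos, without treatment, taken on each embryonic day (E) from E11.5 to E14.5, with 1 library per time point. XX and XY gonads were pooled, 6 or more gonads of each sex taken from 2 litters for each pool, so a difference between the sexes cannot be seen. The mesonephros, the transient kidney beside the gonad, was left on the gonad at E11.5 only.

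A cell that prepares to divide loads the MCM helicase onto its DNA with the help of CDC6 and CDT1, makes nucleotides with ribonucleotide reductase, thymidylate synthase and thymidine kinase, and copies the DNA behind the sliding clamp PCNA. Cyclin B with CDK1, the Polo and Aurora kinases and spindle motors then carry the cell through mitosis, and the spindle checkpoint holds back the anaphase-promoting complex (APC/C) until all chromosomes are attached. Genes of S phase are classical targets of E2F factors, and many mitosis genes are controlled through CCAAT boxes and the cell cycle genes homology region (CHR). In these days of development the supporting cells, interstitial cells and germ cells of the gonad are multiplying, XX germ cells begin to enter meiosis and XY germ cells begin to leave the cell cycle.

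The promoters printed here belong to the 3 genes of each set with the highest mean level among those that hold the motif of their set outside exons. The promoters were thus chosen by that motif, and only that motif is in capitals. They are RefSeq sequences of GRCm38.p6 on the strand of the gene, from 250 bases before its start and without bases that belong to an exon. Top2a encodes the topoisomerase that untangles chromosomes (chr11:99024207-99024439, minus strand), Mki67 the Ki-67 protein on the surface of mitotic chromosomes (chr7:135716413-135716629, minus strand), and Ccnb2 a cyclin B (chr9:70421555-70421804, minus strand). Capitals mark the CHR (TTTGAA or TTCGAA on either strand), which stood 179, 140, 120 and 23 bases before the start in Top2a, 116 and 98 in Mki67 and 167 in Ccnb2.
Top2a: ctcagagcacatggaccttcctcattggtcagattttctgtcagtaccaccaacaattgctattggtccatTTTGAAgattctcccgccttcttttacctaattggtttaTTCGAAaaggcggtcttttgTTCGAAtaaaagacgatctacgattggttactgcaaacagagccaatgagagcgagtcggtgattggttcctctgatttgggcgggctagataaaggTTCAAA
Mki67: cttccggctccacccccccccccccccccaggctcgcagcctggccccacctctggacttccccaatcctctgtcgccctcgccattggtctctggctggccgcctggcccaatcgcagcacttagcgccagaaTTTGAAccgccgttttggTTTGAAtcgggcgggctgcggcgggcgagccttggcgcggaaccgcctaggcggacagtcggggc
Ccnb2: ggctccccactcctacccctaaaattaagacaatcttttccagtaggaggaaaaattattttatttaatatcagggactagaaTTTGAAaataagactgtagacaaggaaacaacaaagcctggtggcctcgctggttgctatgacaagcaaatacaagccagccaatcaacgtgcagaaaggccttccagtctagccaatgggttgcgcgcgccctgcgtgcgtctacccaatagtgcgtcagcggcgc

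Mcm6 (chr1:128359706-128359955, minus strand) and Mcm7 (chr5:138171267-138171516, minus strand) encode subunits of the MCM helicase, and Rrm1 (chr7:102441445-102441694, plus strand) the large subunit of ribonucleotide reductase. Capitals mark the E2F-like core (TTCCCGC as well as TTCGCGC, and also TTGCCGC and finally TTGGCGC, on either strand). The Mki67 promoter printed above also holds this core, in lower case there. Mcm6 held 4 matches, in 2 places where a match on each strand overlapped the other, 109 and 106 bases and 46 and 43 bases before the start. The Mcm7 promoter printed here held 1 match 113 bases before its start, and Rrm1 held 1 at 67 bases. This start of Mcm7 lies inside the annotated span of the gene, and the match lies outside its exons. Mcm7 has another listed promoter, which is not printed.
Mcm6: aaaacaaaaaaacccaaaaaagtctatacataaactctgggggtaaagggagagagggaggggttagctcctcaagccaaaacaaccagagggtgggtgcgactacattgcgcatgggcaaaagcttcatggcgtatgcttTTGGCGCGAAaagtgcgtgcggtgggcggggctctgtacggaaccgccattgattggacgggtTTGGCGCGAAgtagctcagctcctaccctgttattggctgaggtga
Mcm7: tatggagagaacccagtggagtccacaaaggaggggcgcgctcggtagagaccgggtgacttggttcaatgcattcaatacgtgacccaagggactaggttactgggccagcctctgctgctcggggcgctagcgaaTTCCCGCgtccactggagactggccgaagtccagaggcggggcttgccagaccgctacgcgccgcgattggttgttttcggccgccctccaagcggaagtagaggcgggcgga
Rrm1: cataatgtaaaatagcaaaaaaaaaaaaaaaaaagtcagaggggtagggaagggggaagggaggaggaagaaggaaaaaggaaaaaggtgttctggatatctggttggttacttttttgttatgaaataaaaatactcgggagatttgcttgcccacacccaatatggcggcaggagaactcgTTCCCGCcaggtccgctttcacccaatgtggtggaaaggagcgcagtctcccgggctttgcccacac

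Promoters of 300 bases, from 250 before to 50 after the start, were listed for 33 of the 39 genes, 21 of mitosis and 12 of replication. A gene counted as holding a motif when any of its listed promoters did. The CHR was found for 16 of the 21 mitosis genes (76.2%) and for 2 of the 12 replication genes (16.7%). The share was 21.7% of all 27025 genes in the table. The 2 replication genes were Mcm2 and Mcm7. The Mcm7 promoter printed above holds no CHR, so that of Mcm7 stands in another listed promoter. The E2F-like core had the opposite order, with 3 of 21 (14.3%) in the mitosis set, 8 of 12 (66.7%) in the replication set and 10.9% in the table. The 3 mitosis genes were Ccnb1, Cdk1 and Mki67. Among the genes without the motif of their own set were Pcna and Ccnb1. CCAAT on either strand was common to both sets, at 18 of 21 (85.7%) and 8 of 12 (66.7%), against 41.1%. In a window of the 200 bases before the start, both shares were lower. The CHR was found for 42.9% of the mitosis genes and 15.4% of the table. The E2F-like core was found for 41.7% of the replication genes and 7.77% of the table. Promoters of Ccna2, Aurkb, Kif20a, Tpx2, Mcm4 and Gins2 were not analysed here. A match describes the sequence and not a bound site, and a window without one says nothing of the factor.

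**Figure D1:**
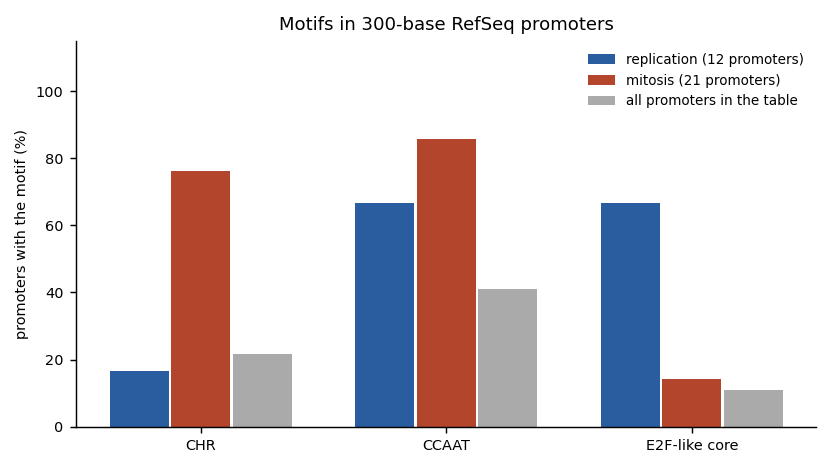
Share of genes (%, vertical axis) with a RefSeq promoter that holds the CHR, CCAAT or the E2F-like core. Bars are the 12 replication genes (blue), the 21 mitosis genes (red) and all genes in the table (grey). Promoters in the labels stand for genes. The CHR is at 76.2% in the mitosis bar and 16.7% in the replication bar, and the E2F-like core at 14.3% and 66.7%.

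The libraries held 31266481, 25593453, 31752562 and 31526303 counts from E11.5 to E14.5. The 18S rRNA gene Rn18s-rs5 took 9.06%, 1.31%, 1.03% and 40.7% of these counts, so the libraries of E11.5 and E14.5 stand apart in the rRNA left in them. Levels are therefore given as TMM-scaled RPKM, counts per length of exon and per library size, where TMM (trimmed mean of M-values) corrects the library size by the bulk of the genes. Between E13.5 and E14.5, plain total counts would lower the median gene by 1.07 on the log2 scale and the deposited TPM would lower it by 1.63. The 5 gonad markers Gata4, Wt1, Nr5a1, Lhx9 and Emx2 were expressed in every library, at 11.7 to 101.3 scaled RPKM. With 1 library per time point, every interval covers counting error only and every difference is between libraries. In whole gonads, fewer cells of a type and less RNA per cell cannot be told apart.

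All 39 genes were well covered, from Gins2 with 585, 387, 423 and 243 counts to Mki67 with 18688, 16048, 19681 and 9598. Their summed level was 1160, 1170, 1029 and 959 scaled RPKM in the order of the days. The level was lowest at E14.5 in 27 of the 39 genes, against 33.1% of the 9620 well-covered genes, those with 200 counts or more in each library. It was highest at E12.5 in 22 genes, against 22.8%, and at E11.5 in 16, against 34.2%. No gene of the 39 was highest at E13.5, where 19.8% of the well-covered genes were. Of the mitosis set, 17 of 25 genes were highest at E12.5, and of the replication set 9 of 14 were highest at E11.5.

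The 6 MCM subunits, which form the ring that unwinds DNA, were all lowest at E14.5. Mcm6 was the most abundant in every library, at 59.6, 68.0, 63.1 and 52.4 scaled RPKM from E11.5 to E14.5, and Mcm5 the least, at 30.7, 33.3, 29.4 and 27.3. The other subunits lay between them, with Mcm2 at 37.8, 42.7, 35.8 and 28.3 and Mcm7 at 52.2, 53.6, 44.4 and 37.7. Although the proteins act as a ring with a single copy of each, Mcm6 held between 22.3% and 25.3% of the summed MCM TPM of a library and Mcm5 between 11.48% and 12.9%, so the most abundant transcript was 1.92 to 2.14 times the least abundant.

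Among the other replication genes Pcna, the sliding clamp, had the highest mean level of all 39, at 88.0, 79.7, 74.3 and 74.2 scaled RPKM. Cdc6, a loader of the MCM ring, was the lowest of all, at 5.26, 4.44, 3.66 and 3.94, and its partner Cdt1 was at 18.9, 18.8, 16.4 and 15.5. The rank of Cdc6 rests on its annotated exon length of 5036 bases, since it had more counts than Gins2 in every library. Gins2, a subunit of the GINS complex that joins the helicase to the polymerases, was at 16.5, 11.9, 10.3 and 12.4. All 4 genes of nucleotide synthesis were highest at E11.5. Both subunits of ribonucleotide reductase had the same level at E11.5, Rrm1 with 47.4, 40.3, 31.5 and 30.3 and Rrm2 with 47.1, 32.7, 27.2 and 24.3. Rrm2 had the widest range of the 39, 1.94-fold from its highest to its lowest library. Tyms, thymidylate synthase, was at 9.08, 7.15, 6.45 and 5.91, and Tk1, thymidine kinase, at 9.71, 8.22, 7.74 and 9.35.

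Of the mitosis genes Top2a was the highest, at 77.0, 81.7, 68.6 and 66.1 scaled RPKM, followed by Ube2c, the ubiquitin-conjugating enzyme of the APC/C, at 68.1, 69.4, 58.1 and 53.6. Mki67, the common marker of cycling cells, stayed within a 1.10-fold range, at 54.0, 50.6, 49.2 and 50.4. In the group of cyclins and kinases, Ccna2 (cyclin A2) was highest, at 35.0, 39.2, 37.0 and 34.2, and 5 of the 7 peaked at E12.5. Ccnb1, the main mitotic cyclin, was at 31.2, 36.0, 31.2 and 25.5, and its relative Ccnb2 at 26.3, 30.9, 30.6 and 25.7. The Aurora kinases had different courses: Aurka, which acts at the spindle poles, was at 15.3, 16.7, 13.8 and 12.0, and Aurkb, which acts at centromeres and the midzone, at 16.2, 15.5, 11.4 and 12.8.

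The checkpoint kinases Bub1 and Ttk were at 14.8, 16.9, 15.6 and 16.8 and at 8.83, 10.7, 9.55 and 7.97 scaled RPKM. Bub1b, the checkpoint protein BUBR1, was at 22.0, 21.9, 17.1 and 16.5, while Cdc20, the APC/C activator that the checkpoint restrains, was at 28.2, 30.2, 25.2 and 23.1. Of the genes of chromosomes and centromeres, Cenpa, the histone H3 variant of centromeres, was at 30.7, 33.5, 27.8 and 24.0, and Cenpf, a kinetochore protein, at 14.54, 18.8, 18.1 and 17.0. Cenpf was the only gene of its group lowest at E11.5. The kinesin Kif11, which pushes spindle poles apart, led the spindle and cytokinesis genes at 24.4, 26.5, 25.01 and 22.1. Kif23, a motor of the central spindle, was the only gene of the 39 with its highest level at E14.5, at 14.4, 13.6, 14.1 and 15.2, and Prc1, which bundles the microtubules of the midzone, was at 17.7, 21.1, 20.6 and 21.0.

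**Figure D2:**
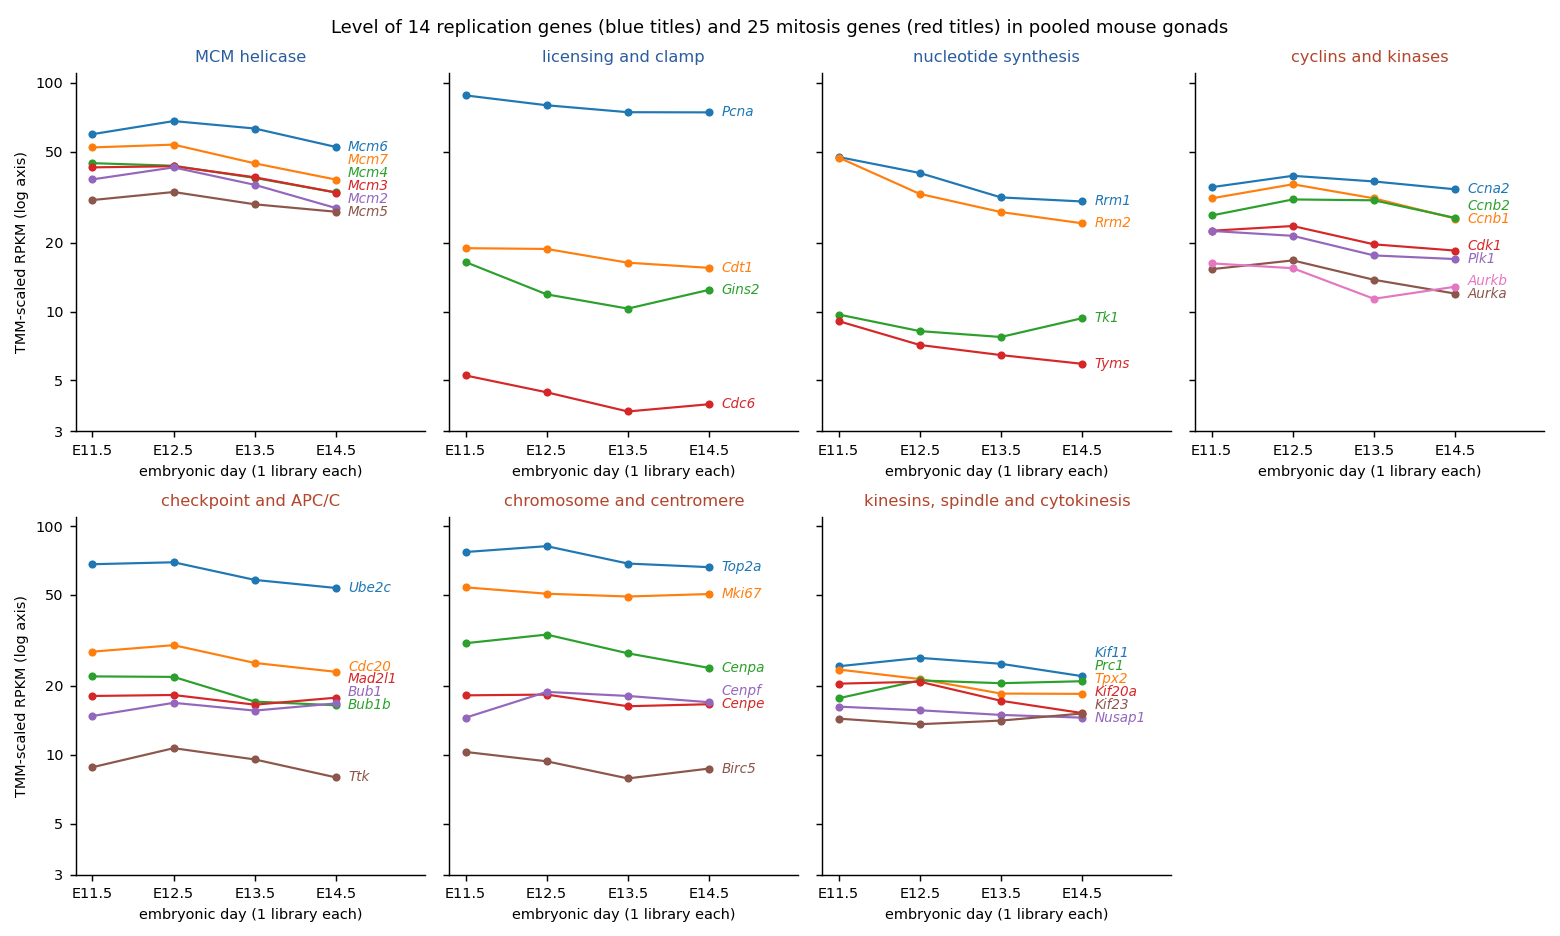
TMM-scaled RPKM (vertical log axis) of each gene in the 4 libraries (horizontal axis), in 7 panels by role, with replication panels titled in blue and mitosis panels in red. The 6 MCM lines are lowest at E14.5, the 4 lines of nucleotide synthesis are highest at E11.5, and the Mki67 line stays between 49.2 and 54.0.

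Fold changes between libraries were counted as changed when they were at least 1.3-fold and their exact 95% interval lay wholly on a single side of no change. By the stricter rule of the study, at least 2-fold with an FDR of at most 0.05, none of the 39 genes was a DEG (differentially expressed gene) in any comparison by edgeR's exact test. The same rule called 13.9%, 1.82% and 4.67% of the genes tested for the 3 daily steps and 7.48% for E14.5 against E12.5. At an unadjusted p under 0.05, edgeR counted 2, 1, 0 and 8 of the 39 genes in the same order. The shares of the genes tested at that threshold were 28.0%, 9.49%, 12.3% and 19.3%, and of the 9620 well-covered genes 2019, 434, 642 and 1252 passed it. The comparisons share libraries, so their counts are not independent of each other.

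Between E12.5 and E11.5, across the stage of sex determination, 2 genes fell and 0 rose, where 10.4% and 14.6% of the well-covered genes fell and rose (16.8% and 16.4% of the genes tested). Both that fell belong to replication. Rrm2 fell 1.44-fold (log2 fold change −0.53, 95% interval −0.61 to −0.45) and Gins2 fell 1.38-fold (−0.47, −0.66 to −0.28). Rrm2 had the smallest FDR of the 39 in edgeR's exact test, 0.0542, at a preset biological coefficient of variation (BCV) of 0.1, and 0.738 at a BCV of 0.2. Gins2 shares 118 of its 1038 exon bases with Gse1 on the opposite strand, whose counts went from 4092 to 2132, and whether the counting used the strand is not given in the sources used here. Of the remaining genes of nucleotide synthesis, Tyms was at −0.35 (−0.45 to −0.24), Tk1 at −0.24 (−0.41 to −0.08) and Rrm1 at −0.23 (−0.29 to −0.18). Of those of licensing and clamp, Cdc6 was at −0.24 (−0.39 to −0.10), Pcna at −0.14 (−0.21 to −0.07) and Cdt1 at −0.01 (−0.12 to 0.10). The 6 MCM genes ran from −0.04 for Mcm4 to 0.19 for Mcm6.

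No mitosis gene passed in this comparison. The highest was Cenpf at 0.37 (0.32 to 0.42), just under the fold required, then Ttk at 0.28 (0.15 to 0.40) and Prc1 at 0.26 (0.18 to 0.34). The median log2 fold change was −0.09 over the 14 replication genes and 0.07 over the 25 mitosis genes, beside 0.02 over the well-covered genes. The log2 fold change was below 0 in 17 of the 39 genes, against 46.6% of the well-covered genes, and at a fold of 1.2, 3 genes fell and 2 rose, against 16.2% and 20.8%. The direction depended on the scaling: with total counts the medians were 0.07 and 0.23, 4 genes rose and 0 fell, and with the deposited TPM 14 rose and 0 fell, so that Gins2 and Rrm2 no longer passed. The median of the well-covered genes was 0.18 with total counts and 0.31 with the deposited TPM. The presence of the mesonephros at E11.5 only moves with this comparison: the 8 mesonephros markers summed to 40.0 scaled RPKM at E11.5 and to 9.28, 7.23 and 8.73 afterwards, lower at E12.5 than at E11.5 in all but Lhx1, with Sim1 at 412, 9, 1 and 3 counts. The 9 germ cell markers summed to 14.9, 153, 179 and 160, all of them above 0. The 11 erythroid markers summed to 3211, 6009, 5888 and 5538, with medians of 63.9, 220, 209 and 73.7. Their part in the result was not tested.

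From E12.5 to E13.5 nearly all values lay on the lower side, with small sizes. The log2 fold change was below 0 in 38 of the 39 genes, all 14 of replication and 24 of 25 of mitosis, against 52.5% of the well-covered genes. Aurkb was the only gene that fell by the rule, 1.36-fold (−0.44, −0.57 to −0.32), where 2.52% of those genes and 5.41% of the genes tested fell, and 0 rose, where 3.24% and 7.73% rose. Below the fold required were Bub1b at −0.36 (−0.44 to −0.28) and Rrm1 at −0.35 (−0.41 to −0.30), each 1.28-fold lower. At a fold of 1.2, 11 of the 39 genes fell, against 6.11% of the well-covered genes: Cdk1, Plk1, Aurka, Aurkb, Bub1b, Cenpa, Kif20a, Mcm7, Cdc6, Rrm1 and Rrm2. The highest values were Kif23 at 0.05 (−0.04 to 0.14), Ccnb2 at −0.01 (−0.11 to 0.09) and Prc1 at −0.04 (−0.12 to 0.04).

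The medians were −0.19 for replication and −0.20 for mitosis, beside −0.01 over the well-covered genes. Relative to that median both sets were lower, at −0.18 and −0.20 on the log2 scale. A scaling shifts every gene of a comparison alike, so no scaling could change these differences. The deposited TPM gave medians of −0.059 and −0.074, and 0 genes passed. Scaled by the median of 15 housekeeping genes Aurkb was at −0.37 and no longer passed. On the main scale these housekeeping genes had medians of 0.01, −0.05 and −0.02 for the 3 daily steps and −0.03 for E14.5 against E12.5. Single ones spread more widely, from −0.56 (Pgk1) to 0.22 (Hprt) for E13.5 against E12.5. For E14.5 against E12.5 the same genes marked the ends, at −0.54 and 0.38. Both libraries had little Rn18s-rs5. Markers of meiosis moved with this comparison, the 10 genes summing to 8.54, 20.9, 57.3 and 84.4 scaled RPKM from E11.5 to E14.5, with Stra8 at 0 counts at E11.5 and 3 at E12.5, and their part in the result was not tested.

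From E13.5 to E14.5 no gene of the 39 passed, where 3.38% of the well-covered genes fell and 4.98% rose (5.42% and 10.7% of the genes tested). The lowest were Mcm2 at −0.34 (−0.42 to −0.26), Ccnb1 at −0.29 (−0.39 to −0.19) and Mcm6 at −0.27 (−0.33 to −0.21). The highest were Tk1 at 0.27 (0.08 to 0.46), Gins2 at 0.27 (0.04 to 0.50) and Aurkb at 0.18 (0.02 to 0.33). The log2 fold change was below 0 in 28 of the 39 genes, against 58.3% of the well-covered genes, and at a fold of 1.2, 3 genes fell and 2 rose, against 8.48% and 8.12%. All 6 MCM genes were below 0, with a median of −0.23, while the 4 genes of licensing and clamp had a median of 0.05. The set medians were −0.12 for replication and −0.05 for mitosis, beside −0.04 over the well-covered genes, and relative to it −0.08 and −0.02. This comparison sets a library with 1.03% Rn18s-rs5 against a library with 40.7%. Scaled by total counts, all 39 genes would fall and 31 would be DEGs by edgeR, as would 11515 of the 20114 genes tested. The median of all genes tested is then lowered as well.

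Over both days, from E12.5 to E14.5 and without mesonephros in either library, 13 of the 39 genes fell and 0 rose, where 7.49% of the well-covered genes fell and 8.98% rose (8.93% and 15.3% of the genes tested). Among the replication genes 6 of 14 fell, 4 of them MCM subunits. Mcm2 fell 1.51-fold (−0.59, −0.67 to −0.51), the largest change, with an FDR of 0.0461 in edgeR's exact test at a BCV of 0.1, of 0.929 at a BCV of 0.2 and of 0.0891 with housekeeping scaling. Mcm7 fell 1.42-fold (−0.51, −0.58 to −0.43), Mcm4 1.308-fold and Mcm3 1.303-fold, while Mcm6 at −0.38 and Mcm5 at −0.29 lay under the fold required. Both reductase subunits fell, Rrm2 1.34-fold (−0.43, −0.54 to −0.32) and Rrm1 1.33-fold (−0.41, −0.49 to −0.34). Tk1 at 0.19 (−0.01 to 0.38) and Gins2 at 0.07 (−0.17 to 0.30) were the only replication genes above 0, and their intervals hold no change.

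Among the 25 mitosis genes 7 fell, and they came from every role. Ccnb1 fell 1.41-fold (−0.50, −0.60 to −0.40), Aurka 1.40-fold (−0.48, −0.65 to −0.32) and Cenpa 1.40-fold (−0.48, −0.61 to −0.36). The others were the central spindle kinesin Kif20a (−0.45), the checkpoint genes Ttk (−0.42) and Bub1b (−0.41) and the APC/C activator Cdc20 (−0.39). Other genes of the same processes had intervals around no change, namely Mki67 at −0.0047 (−0.04 to 0.03), Bub1 at −0.01 (−0.11 to 0.09) and Prc1 at −0.01 (−0.11 to 0.08), and Kif23 was at 0.15 (0.05 to 0.26). The interval of Mki67 is narrow, so its change differed from that of Mcm2 or Ccnb1 by more than counting error. Kif20a shares 1271 of its 3905 exon bases with Cdc23 on the opposite strand, whose counts went from 2545 to 1421, and Ccna2 shares 378 of its 2811 exon bases with Exosc9.

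The set medians from E12.5 to E14.5 were −0.33 for replication and −0.27 for mitosis, beside −0.04 over the well-covered genes. Relative to the last they were −0.29 and −0.23, differences that no scaling could change. In all, 36 of the 39 genes were below 0, against 57.5%. How many genes passed depended on the scaling. With 15 housekeeping genes 6 of the 13 remained, Mcm2, Mcm7, Ccnb1, Aurka, Cenpa and Kif20a, and the medians were −0.27 and −0.21. With total counts all 39 fell, since the whole library of E14.5 is then lowered. At a fold of 1.2, 24 of the 39 genes fell, against 15.9% of the well-covered genes, and at 1.5-fold only Mcm2 fell, against 2.06%. Beside this comparison, Rn18s-rs5 went from 1.31% to 40.7% of the counts. The gonad markers went from 272 to 211 scaled RPKM in sum, while their median went from 32.6 to 36.9. In sum, the germ cell markers went from 153 to 160 and the meiosis markers from 20.9 to 84.4. The part of each in the result was not tested.

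**Figure D3:**
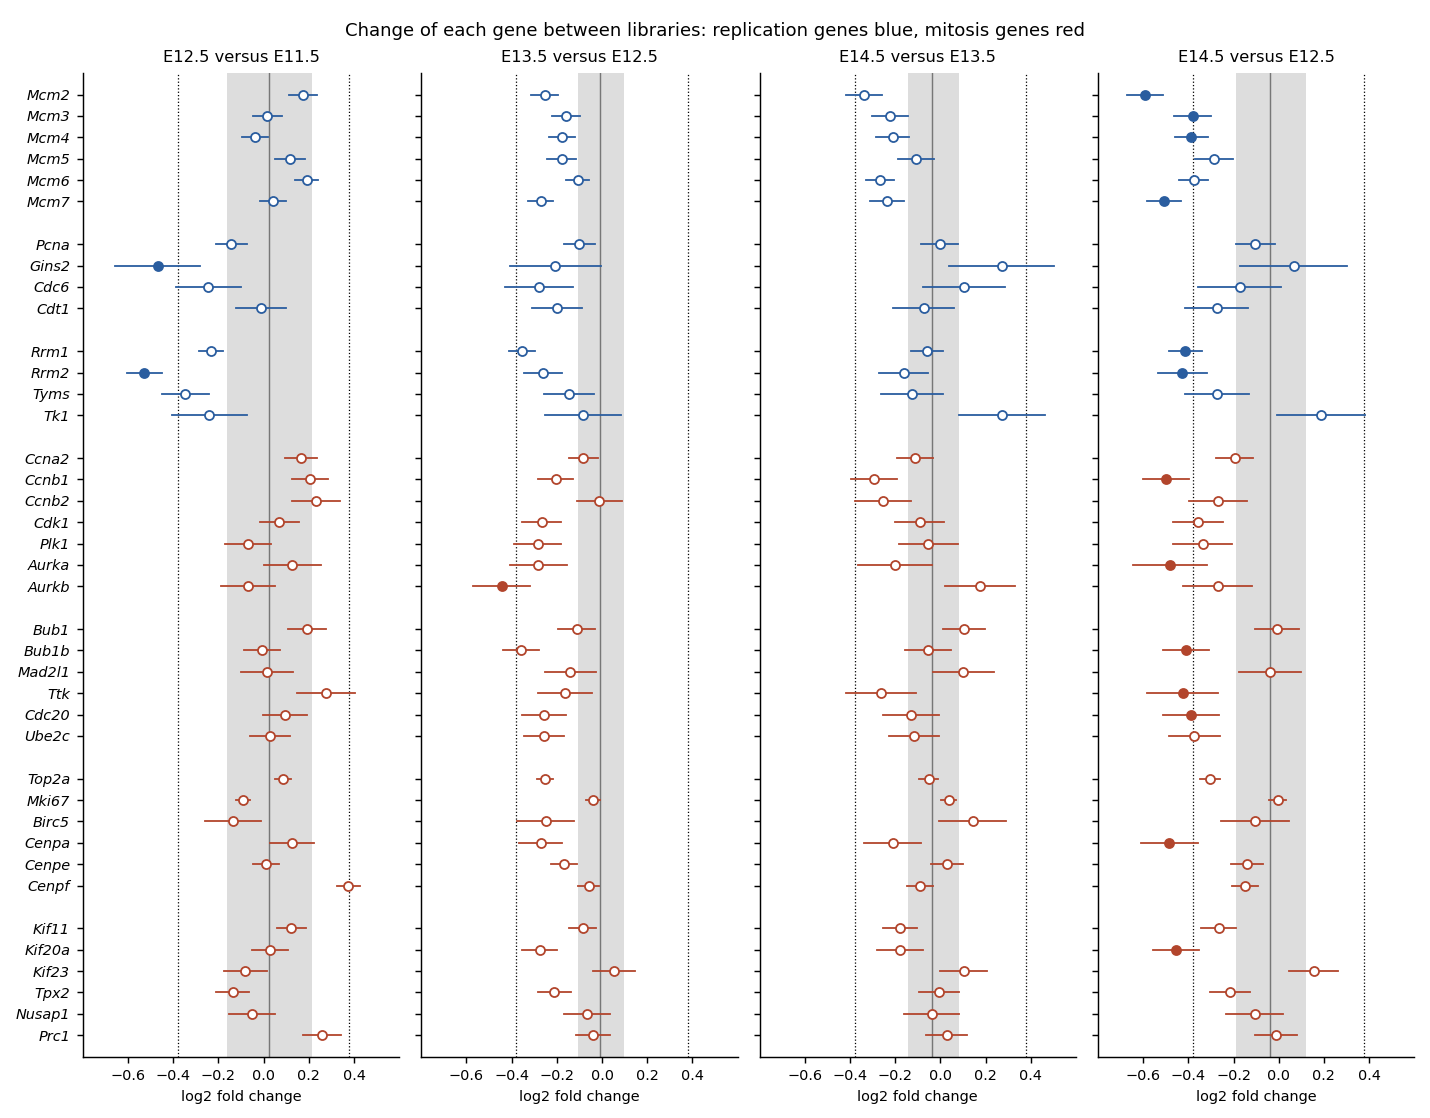
Log2 fold change (horizontal axis) of each gene in 4 comparisons of libraries, with 95% intervals of the counts, replication genes in blue and mitosis genes in red. Filled points passed the rule, dotted lines mark a 1.3-fold change, and the grey band and line are the middle 50% and the median of the well-covered genes. The 13 filled points from E12.5 to E14.5 all lie to the left of the band, and 38 of 39 points lie below 0 from E12.5 to E13.5.

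**Figure D4:**
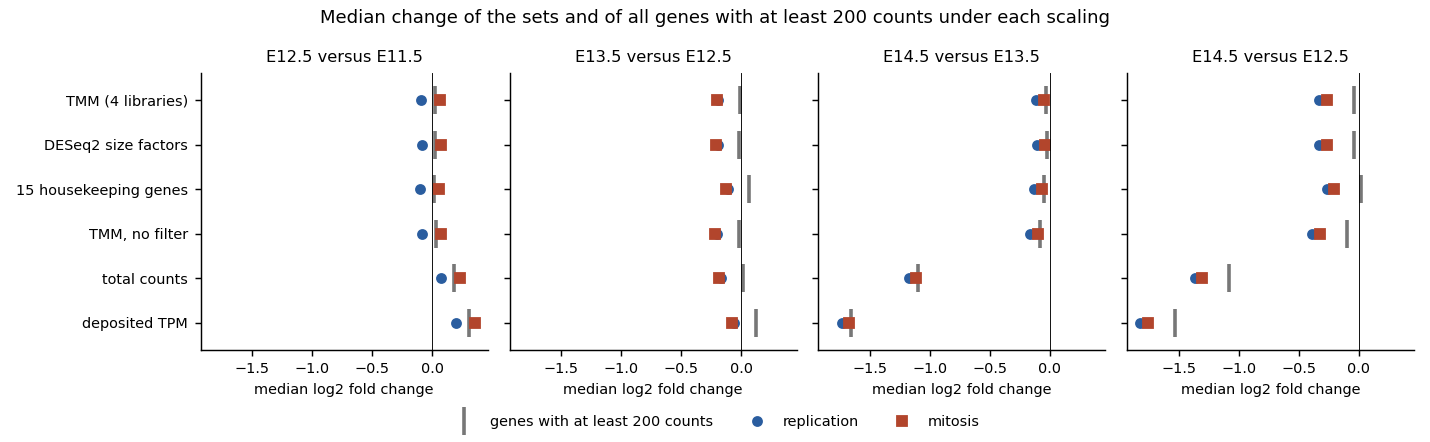
Median log2 fold change (horizontal axis) of the replication set (blue circles), the mitosis set (red squares) and the well-covered genes (grey bars) under 6 scalings (rows) in the 4 comparisons. Total counts and the deposited TPM move all 3 medians together, as at E14.5, where the bars move to −1.10 and −1.66 from E13.5. A scaling shifts every gene of a comparison alike, so the distance of the sets from the bars is fixed in advance.

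Ratios within a library do not depend on the scaling. The summed TPM of the 14 replication genes was 0.783 times that of the 25 mitosis genes at E11.5 (95% interval 0.773 to 0.793). It was then 0.714 (0.705 to 0.724), 0.710 (0.701 to 0.719) and 0.680 (0.667 to 0.693). The ratio was highest at E11.5 and lowest at E14.5, and the values of E12.5 and E13.5 differed by less than counting error. On the log2 scale the steps were −0.13, −0.01 and −0.06. The mesonephros was left on the gonad at E11.5 only, and its part in the first step was not tested. The ratio of the median gene of each set gave the same order of libraries, from 1.83 to 1.72, 1.69 and 1.56. Without Ccna2, Top2a and Mki67 in the mitosis set, the ratio of the sums was 1.05, 0.954, 0.956 and 0.924. The sets differ in size, so a ratio of sums below 1 does not mean lower levels per gene. In summed TPM, the 39 genes went from 1790 at E11.5 to 2199, 2117 and 642, the last in the library with the most rRNA.

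Not all partners in a complex or pathway kept a fixed ratio. Rrm1 to Rrm2, the subunits of ribonucleotide reductase, was 1.005 at E11.5 (0.964 to 1.047) and 1.23 (1.174 to 1.298), 1.16 (1.10 to 1.22) and 1.25 (1.16 to 1.34) later, so Rrm1 exceeded Rrm2 from E12.5 on. Bub1 to Bub1b, paralogous checkpoint genes, went from 0.671 (0.635 to 0.710) through 0.770 (0.728 to 0.815) and 0.913 (0.865 to 0.965) to 1.02 (0.942 to 1.10), with no overlap of the intervals of the first 3 libraries. Ccnb1 to Ccnb2 went from 1.19 (1.11 to 1.27) and 1.16 (1.09 to 1.24) to 1.02 (0.962 to 1.08) and 0.994 (0.905 to 1.09). In each of these pairs the first and the last library differed by more than counting error, and no replicate shows the spread between pools. Only the E11.5 library included mesonephros, whose part in these ratios was not tested.

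The ratio of the Aurora kinases, Aurka to Aurkb, was highest at E13.5 with 1.21 (1.11 to 1.32), beside 0.943 (0.867 to 1.03) at E11.5, 1.08 (0.992 to 1.18) at E12.5 and 0.933 (0.820 to 1.06) at E14.5. Aurka to Tpx2, its activator on spindle microtubules, was 0.649 (0.605 to 0.696), 0.780 (0.726 to 0.838), 0.743 (0.693 to 0.797) and 0.649 (0.582 to 0.722). The MCM loaders Cdc6 and Cdt1 stood at 0.278 (0.255 to 0.302), 0.236 (0.215 to 0.259), 0.224 (0.204 to 0.245) and 0.254 (0.223 to 0.289), where only the intervals of E11.5 and E13.5 do not overlap.

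**Figure D5:**
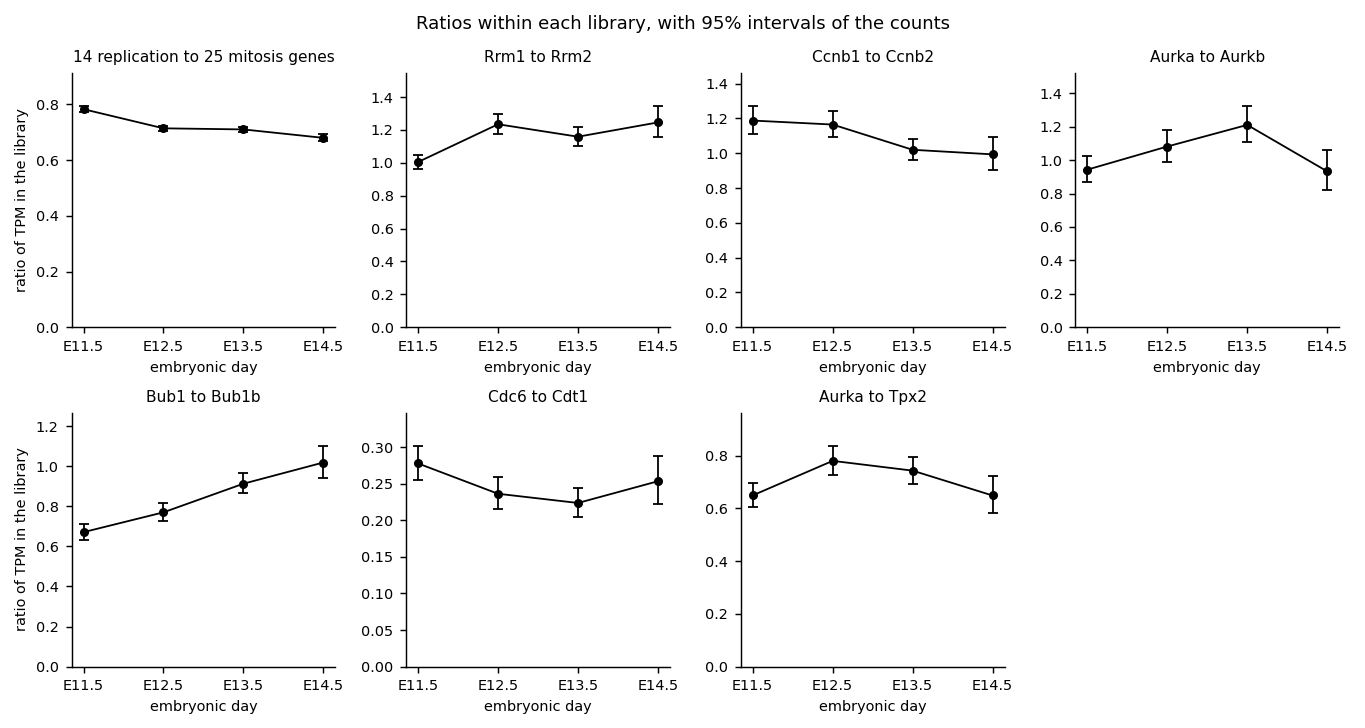
Ratio of TPM within each library (vertical axis, from 0) against embryonic day, for the summed sets and for 6 pairs of partner genes, with 95% intervals of the counts. The set ratio goes from 0.783 at E11.5 to 0.680 at E14.5, Bub1 to Bub1b goes from 0.671 to 1.02, and Aurka to Aurkb is highest at E13.5.

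Other genes of the same processes were taken from a list of 40 replication genes (origin recognition, GINS, polymerases, clamp loader, histone chaperones). A list of 60 symbols of mitosis genes was also used. Those symbols stand for 57 genes, since some genes were listed under an old and a new symbol. From E12.5 to E14.5 the medians of these lists were −0.22 and −0.20. Of the 40 genes 7 fell and 1 rose, and of the 57 genes 6 fell and 2 rose. Of the well-covered genes 7.49% fell and 8.98% rose. Orc1, the largest subunit of the origin recognition complex, fell with −0.81 (−1.03 to −0.60), and Ccne1, a cyclin E of the G1 to S transition, with −0.69 (−0.92 to −0.46), while its relative Ccne2 rose with 0.42 (0.23 to 0.61). Of the other mitosis genes, Mybl2 fell with −0.73 (−0.88 to −0.57) and Cdca5, the cohesin protector sororin, with −0.51 (−0.70 to −0.31), while the kinesin Kif14 rose with 0.47 (0.36 to 0.59) and the phosphatase Cdc25b with 0.44 (0.26 to 0.63).

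From E12.5 to E13.5 these lists had medians of −0.04 and −0.14, with 0 of 40 and 2 of 57 fallen (Spc24 and Cdca5) and 0 and 1 risen (Cdc25b), where 2.52% of the well-covered genes fell and 3.24% rose. For E12.5 against E11.5 their medians were −0.02 and 0.06, with 4 of 40 fallen and 2 risen, and 3 of 57 fallen and 5 risen, where 10.4% of the well-covered genes fell and 14.6% rose. Mybl2, the B-MYB factor that works with the complex binding the CHR, rose with 0.96 (0.83 to 1.10), and its level was 4.82, 9.39, 7.74 and 5.67 scaled RPKM from E11.5 to E14.5. Rpa2, a subunit of the single-strand binding protein RPA, rose with 0.60 (0.48 to 0.72), while Uhrf1, which carries DNA methylation through replication, fell with −0.58 (−0.65 to −0.51) and Ccne2 with −0.55 (−0.71 to −0.39). Of the other mitosis genes, the securin gene Pttg1 rose with 0.46 (0.26 to 0.66), and Cks1b, which encodes a partner of cyclin-dependent kinases, fell with −0.48 (−0.59 to −0.37). From E13.5 to E14.5 the medians were −0.15 and −0.06, with 3 of 40 fallen and 1 risen, and 1 of 57 fallen and 2 risen, where 3.38% of the well-covered genes fell and 4.98% rose. Orc1 fell with −0.63 (−0.84 to −0.42) and Mybl2 with −0.45 (−0.61 to −0.30), while Ccne2 rose with 0.42 (0.24 to 0.60) and Kif14 with 0.63 (0.52 to 0.74). None of these genes was a DEG in any of the 4 comparisons by edgeR's exact test.

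Some of the 39 genes have near-identical copies with which reads could be shared. Transcripts of 8 of the 39 matched another annotated gene at 95% identity or more over at least 200 bases. For Tyms these were stretches of 237 to 361 bases of its 3163-base transcript, in genes such as Wdr59 and Map3k2, and not a whole copy. The pseudogene Gm5487 of Mcm7 had 353, 338, 352 and 140 counts and Pcna-ps2 had 582, 473, 511 and 267, beside 1759 to 3798 counts for Pcna itself. The matching pseudogenes of Ccnb1 and Rrm2 were not analysed here. The study says that its long RNAs were identified from uniquely mapped reads. The counting setting for reads with several positions is not given in the sources used here, and values of these genes are uncertain to that extent.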

How the data were processed

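Whole gonads were measured by bulk RNA sequencing in 4 libraries, 1 for each time point. Per the study's methods, the authors depleted rRNA with probes and RNase H, made stranded libraries with unique molecular identifiers (UMIs), aligned reads to mm10 with STAR, removed duplicates with UMI-tools and counted with featureCounts. Versions and the annotation are not given in the sources used here. The deposited table of each sample holds whole-number counts of deduplicated reads per gene, made by the authors without normalization. It also holds RPKM and TPM values that the authors computed from those counts with calcRPKMTPM, and TPM recomputed from the counts and exon lengths matched for all 40999 features. Because rRNA counts enter RPKM and TPM, the deposited RPKM was not used for levels.

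Genes were filtered with filterByExpr with each library as its own group, which left 20114, and the libraries were scaled by TMM in edgeR 4.0.16 (R 4.3.3) with factors of 1.10, 1.23, 1.25 and 0.597. Fold changes used a count prior of 0.125, with exact Clopper-Pearson 95% intervals of the 2 counts, whose widths cover counting error only. DEGs were called with edgeR's exact test at a preset BCV of 0.1, Benjamini-Hochberg adjusted, since 1 library per time point gives no estimate of the spread. These p-values compare libraries, not conditions. The floor for a gene without counts was set at 3 counts, or 0.0959, 0.117, 0.0945 and 0.0952 CPM from E11.5 to E14.5. The intervals' coverage and the exact test were tested on simulated data. The members and all gene lists were chosen with earlier results of these data known. Genes are described in full where they have the highest mean level of their role, are among the 3 highest or 3 lowest log2 fold changes of a comparison, or are DEGs, and genes of the other lists are named only where they are DEGs or among the 2 highest or 2 lowest of their list. Further genes are given as context.

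The well-covered genes, with 200 counts or more in every library, were added as a background after seeing the data, as was a count without members that overlap another gene. Alternatives were DESeq2 1.42.0 size factors, total counts, housekeeping genes, TMM from the pair, the deposited TPM, other filters and other folds. Motifs were searched with Python 3.11.15 (pandas 2.3.3) on both strands, and near-identical transcripts were found with blastn 2.17.0. Marker lists were summed, with single markers given by counts or range, and the housekeeping genes served as an alternative scaling.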

Additional observations from a re-analysis of the deposited data

How the results depend on the processing

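No paired analysis was possible because each time point has 1 library and no replicate numbers, and leaving out a replicate was not possible for the same reason. Of 136 alternatives of the counts, medians and ratios, 92 stayed close to the main value and 44 moved. With total counts the genes called were 4 for E12.5 against E11.5, all of them risen where the main scaling had 2 fallen, and 39 for E14.5 against E13.5 and against E12.5, with 31 and 36 DEGs by edgeR for the last pair of comparisons. For that pair, 11515 and 10369 of the 20114 genes tested were DEGs as well. The median log2 fold changes were then 0.071, −1.18 and −1.37 for replication and 0.23, −1.11 and −1.31 for mitosis. With the deposited TPM the genes called were 14 (all risen), 0, 39 and 39 for E12.5 against E11.5, E13.5 against E12.5, E14.5 against E13.5 and E14.5 against E12.5, with medians of 0.19, −0.059, −1.74 and −1.82 for replication and 0.35, −0.074, −1.67 and −1.76 for mitosis. With housekeeping genes 0 were called for E13.5 against E12.5 and 6 for E14.5 against E12.5. In the order of the 4 comparisons, a fold of 1.2 called 5, 11, 5 and 24, and a fold of 1.5 called 0, 0, 0 and 1. Without a filter on low counts 1 was called for E14.5 against E13.5, and without overlapping genes 1 for E12.5 against E11.5, an alternative chosen after seeing the data. The log2 change of the replication to mitosis ratio was −0.13, −0.01, −0.06 and −0.07. As a ratio of medians it was −0.089, −0.11 and −0.13 without the second comparison, which stayed close. From summed counts it was −0.10, −0.053, −0.12 and −0.17, and without the highest gene of each set −0.035 for E13.5 against E12.5 and −0.13 for E14.5 against E12.5. The CHR share of the mitosis genes was 42.9% in 200 bases. Of 112 alternatives of 16 calls of single genes, 16 no longer passed and 0 changed sign, 8 of the 16 with housekeeping genes and 3 with TMM from the pair (Cdc20, Mcm3 and Mcm4). The cause was not tested. With 1 library per time point, a difference between pools of one stage cannot be told from a difference between stages.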
